A study of Mus musculus with 1677 samples.

Results

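The adrenal glands of mice fed a Western diet during 9 h of the night (time-restricted feeding, TRF) were compared with those of mice that ate the same diet at any time (ad libitum feeding, ALF). The comparison took every adrenal library in the deposited count table, 48 of its 1035 libraries, which come from 22 tissues. Each group had 24 libraries, 2 at each of 12 clock times from ZT0 to ZT22, where ZT0 is lights on in a cycle of 12 h of light and 12 h of dark. All mice were wild-type C57BL/6J bought at 10 weeks of age and kept for 2 weeks on normal chow. They then received the diet, with 45% fat and 17% sucrose, for 7 weeks. Food was offered from ZT13 to ZT22 under TRF, so the libraries from ZT14 to ZT22 are called the feeding window and those from ZT0 to ZT12 the fasting window. The labels give the libraries a replicate number, 1 or 2, without saying that they come from separate animals, so p-values measure the spread between libraries.

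The adrenal gland is an outer cortex of steroid-producing cells around a medulla of chromaffin cells. Cortical cells take up or make cholesterol, which the protein encoded by Star moves into mitochondria for conversion to corticosterone and aldosterone under the control of ACTH and angiotensin II. Chromaffin cells are excited by splanchnic nerve endings, make adrenaline and noradrenaline from tyrosine, and store them in granules with chromogranins and neuropeptides. Both parts were in the libraries. The summed level of 8 cortex markers (Star, Cyp11b1 and others) had a median of 42700 CPM (counts scaled to a common library total) under ALF and 42300 under TRF, and that of 10 medulla markers (Th, Dbh, Chga and others) was at least 7630 CPM in every library. Whole-gland libraries cannot tell more or fewer cells of a type from more or less RNA per cell.

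Total counts ran from 7391451 to 18850980 per library. A total of 14467 genes passed the filter on low counts. Markers of other tissues were high in some libraries. The hepatocyte gene Alb exceeded 2000 CPM in 7 libraries, 3 from ALF and 4 from TRF, and skeletal muscle markers summed to at most 66.6 CPM in the ALF libraries but to 3349 CPM in the TRF replicate 1 library at ZT14, 861.5 CPM in that at ZT20 and 229.8 CPM in the TRF replicate 2 library at ZT22. All 4 tested muscle markers were called higher in the feeding window, and the muscle genes Myh4 (5.39) and Atp2a1 (4.99) had the largest log2 rises called there. Both calls were lost without ZT20 and without the libraries with much Alb, and the median level over the 24 TRF libraries was 1.53 CPM for Myh4 and 0.933 CPM for Atp2a1. The part of muscle tissue in other results was not tested.

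With clock time as a factor, 4615 genes differed in mean level between TRF and ALF at an adjusted p under 0.05 (31.9% of those tested, edgeR's quasi-likelihood test), of which 2398 were higher under TRF (16.6%) and 2217 lower (15.3%). The median log2 fold change over all genes was 0.0021, and with any single library left out more genes were lower than higher. The replicate 1 libraries alone gave 3177 such genes and the replicate 2 libraries alone 442, with 5203 and 3133 at an unadjusted p under 0.05. The labels do not say what the number marks, and its part in the results was not tested, so the counts in 1 replicate number alone are given beside the gene groups. The called share of all genes, 31.9% (16.6% higher and 15.3% lower), is the background for each list count in mean level.

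Promoters of 6 genes from the groups described next are shown because many genes of their groups moved the same way and these 6 hold a short motif. They are the 250 bases before the RefSeq start site (GRCm38.p6), written 5′ to 3′ on the strand of the gene, and both strands were searched. The first 3, from medullary genes, carry in capitals the cAMP response element TGACGTCA, the binding motif of CREB, which splanchnic stimulation is known to activate. It starts 112 bases before the start site in Cartpt (chr13:99900684-99900933, minus strand), 45 in Th (chr7:142899996-142900245, minus strand) and 72 in Chgb (chr2:132781392-132781641, plus strand).

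Cartpt: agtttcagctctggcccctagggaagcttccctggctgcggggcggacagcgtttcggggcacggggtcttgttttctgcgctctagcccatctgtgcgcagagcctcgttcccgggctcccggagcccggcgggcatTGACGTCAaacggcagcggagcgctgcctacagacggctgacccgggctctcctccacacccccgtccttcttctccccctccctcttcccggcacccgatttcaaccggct
Th: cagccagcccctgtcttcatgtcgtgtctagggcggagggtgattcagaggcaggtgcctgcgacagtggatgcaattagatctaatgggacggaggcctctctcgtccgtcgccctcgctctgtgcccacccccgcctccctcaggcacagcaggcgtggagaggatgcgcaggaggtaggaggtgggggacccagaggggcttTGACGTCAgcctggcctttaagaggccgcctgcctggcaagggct
Chgb: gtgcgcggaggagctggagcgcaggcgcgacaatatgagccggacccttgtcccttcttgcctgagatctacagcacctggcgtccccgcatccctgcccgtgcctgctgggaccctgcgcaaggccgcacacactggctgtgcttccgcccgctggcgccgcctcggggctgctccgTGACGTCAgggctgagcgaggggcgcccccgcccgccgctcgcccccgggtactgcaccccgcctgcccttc

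The motif was in 4 of the 17 granule and neuropeptide genes with a promoter in the RefSeq table (Cartpt, Chgb, Pcsk1 and Scg2) and 1 of the 9 catecholamine genes (Th). Of all 32851 promoters, 508 (1.55%) held it. Counted by gene, as in the lists, the share was 1.77% of 27025. The last 3 promoters are from interferon-stimulated genes and carry in capitals the core of the interferon response element, GAAANNGAAA. Ifit1 (chr19:34640639-34640888, plus strand) has 2 matches, 104 and 85 bases before the start, and Ifit3 (chr19:34583279-34583528, plus strand) has 2, at 156 and 122. In both genes the matches lie on the opposite strand, so the capitals show the reverse complement. Isg15 (chr4:156200819-156201068, minus strand) has 3 matches that overlap each other, at 78, 72 and 66 bases.

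Ifit1: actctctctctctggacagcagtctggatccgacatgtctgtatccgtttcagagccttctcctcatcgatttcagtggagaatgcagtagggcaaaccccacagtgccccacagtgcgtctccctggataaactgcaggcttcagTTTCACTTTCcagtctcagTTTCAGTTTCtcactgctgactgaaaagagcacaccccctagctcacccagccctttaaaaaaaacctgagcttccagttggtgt
Ifit3: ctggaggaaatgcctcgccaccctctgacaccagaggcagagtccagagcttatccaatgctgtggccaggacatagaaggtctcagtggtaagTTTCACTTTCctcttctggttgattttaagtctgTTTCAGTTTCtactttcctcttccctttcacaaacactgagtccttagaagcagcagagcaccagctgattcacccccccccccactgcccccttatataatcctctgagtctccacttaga
Isg15: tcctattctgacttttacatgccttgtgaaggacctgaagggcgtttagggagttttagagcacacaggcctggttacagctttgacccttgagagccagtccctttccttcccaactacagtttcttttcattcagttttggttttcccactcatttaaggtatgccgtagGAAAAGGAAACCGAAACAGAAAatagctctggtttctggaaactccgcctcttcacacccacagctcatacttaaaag

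This core was in 9 of 17 interferon-stimulated genes with a promoter, against 3.46% of all genes, and in 978 of all promoters (2.98%). A match is a description, not a site or a cause. In the same windows the sterol response element core TCACNNCA was in 8 of 17 cholesterol synthesis genes against 13% of all genes (11.4% of promoters). The E-box CACGTG was in 5 of 17 core clock genes against 6.86% (6.02%). The heat shock element was in 0 of 16 cytosolic heat shock genes against 0.514% of all genes (0.466% of promoters). With so rare a motif, 0 of 16 cannot show that these genes hold it less often than others. The shorter cAMP core TGACG was in 11 of 17 granule and 4 of 9 catecholamine genes against 19.8% of all genes. It was also in 8 of 16 cytosolic heat shock, 7 of 17 cholesterol synthesis, 5 of 17 core clock and 2 of 17 interferon-stimulated genes. The ROR core AGGTCA was in 4 of 17 core clock genes (15.8%) and the RE1 core CAGCACC in 2 of 17 granule genes (6.56%).

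The genes that make and package catecholamines were higher under TRF. Of 13 such genes 9 rose in mean level, with a list median of 0.48 on the log2 scale. The rate-limiting enzyme tyrosine hydroxylase, encoded by Th, had 354 CPM in its lowest, 549 in its median and 3134 in its highest ALF library, against 544, 1677 and 3515 under TRF. Of the 24 TRF libraries 23 lay above the ALF median, but the groups overlapped, and the ALF maximum was the replicate 1 library at ZT0. Th rose by 1.31 ± 0.19 (SE, n = 24 libraries per group, adjusted p = 4.5e-06), and its mean was higher under TRF at all 12 clock times. Dbh, which converts dopamine to noradrenaline, ran from 459 through a median of 677 to 1924 CPM under ALF and from 836 through 1559 to 2402 under TRF (0.98 ± 0.14, adjusted p = 1.5e-06). Slc18a2, the vesicular monoamine transporter, ran from 29.1 through 52.4 to 150.4 CPM and from 57.9 through 114.5 to 214.8 CPM (1.09 ± 0.13, adjusted p = 2.2e-07). For both genes every TRF library was above the ALF median.

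Smaller rises were found for Gch1 (0.52), which supplies the cofactor tetrahydrobiopterin, for the second vesicular transporter Slc18a1 (0.48), for Maoa (0.48), which degrades catecholamines, for Ddc (0.34) and for Qdpr (0.24). Pnmt, which makes adrenaline and is known to be induced by glucocorticoids, had medians of 278.5 and 416.4 CPM and a rise of 0.56 ± 0.21 at an adjusted p of 0.038. That call was lost when any of 18 of the 48 libraries was left out. Spr, of the same cofactor pathway as Gch1, fell by 0.17, and Pts (0.02) and Slc6a2 (0.45) did not pass. In the fasting window 7 of the 13 rose, where 17.4% of all genes tested were called (9.07% higher, 8.38% lower), and in the feeding window 9 rose, where 16.4% were called (8.59% higher, 7.85% lower). In the replicate 2 libraries alone 5 of the 13 rose in mean level, among them Th, Dbh and Slc18a2, whose calls also held in the replicate 1 libraries alone.

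Genes of granule proteins and neuropeptides rose. Of 18 tested genes 16 rose, with a median of 0.56. Penk (-0.15) and Pcsk1n (-0.49) were the others and did not pass, though 1 was lower at an unadjusted p under 0.05 (edgeR). With single libraries left out, 15 to 16 of the list rose and 0 to 1 fell. Chgb, the granule protein chromogranin B, had a lowest level of 4009, a median of 5930 and a highest of 17150 CPM under ALF, and 9808, 14870 and 28950 CPM under TRF. All 24 TRF libraries lay above the ALF median and 10 above the ALF maximum (1.21 ± 0.14, adjusted p = 1.6e-07). The CART prepropeptide gene Cartpt ran from 1.36 through 3.42 to 21.9 CPM under ALF and from 4.997 through 21.04 to 70.24 CPM under TRF. It rose by 2.27 ± 0.26 (adjusted p = 1.1e-07), and 12 TRF libraries exceeded every ALF library. Npy, a sympathetic co-transmitter, ran from 152.9 through 268.5 to 1487 CPM and from 462.1 through 1100 to 2955 CPM (1.69 ± 0.22, adjusted p = 7.9e-07).

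Vgf, whose product is cut into secreted peptides, rose by 2.57 ± 0.43 (adjusted p = 2.8e-05). It was uneven within groups: ALF libraries ran from 1.06 to 66.7 CPM around a median of 2.65, and TRF libraries from 4.15 to 106 CPM around 24.9. Galanin (Gal) went from a median of 41.9 to 113.3 CPM and rose by 1.36 ± 0.19. Resp18, a granule protein of endocrine cells, overlapped less between the groups, with 64.6 to 179.4 CPM under ALF, 145.1 to 328.4 CPM under TRF and 15 of 24 TRF libraries above the ALF maximum (0.90 ± 0.10). Pam, the enzyme that amidates peptide ends, rose by 0.36 ± 0.04 with 14 TRF libraries above the ALF maximum. In the fasting window 14 of the 18 rose and in the feeding window 15. A total of 9 of the 18 rose in mean level in the replicate 2 libraries alone, Chgb, Cartpt, Npy, Gal, Vgf, Resp18 and Pam included.

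Genes of chromaffin excitability and exocytosis followed, with 11 of 17 higher and a median of 0.41. Chrnb4 and Chrnb2, subunits of the nicotinic receptors that receive the nerve's acetylcholine, rose by 0.72 ± 0.11 and 0.60 ± 0.08. Snap25, of the vesicle fusion complex, rose by 0.65 ± 0.09, and the sodium channel gene Scn3a by 0.64 ± 0.09. In the replicate 1 libraries alone 11 of the 17 rose; in the replicate 2 libraries alone the list median was 0.18, no gene of the 17 passed by edgeR, and 7 were higher at an unadjusted p under 0.05.

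The 15 largest rises, among genes above a mean level of 5 CPM that moved the same way in replicate 1 as in replicate 2 libraries, were led by genes known from neurons and endocrine cells. Vgf, Cartpt, Npy, Gal and Th were among them, and so was the neuronal kinase gene Camk4 (1.34). Ecel1, an endopeptidase of neurons, rose by 2.54, Dclk1, a microtubule-binding kinase, by 2.02, Omg by 1.42, Zcchc12 by 1.40 and the glutamate receptor subunit Grin3a by 1.23. Prl8a2 of the prolactin family, whose many similar copies make its count uncertain, rose by 2.44. Nrip3 (1.56), 2010109I03Rik (1.38) and Masp1 (1.35) completed the set. In each of these genes at least 23 of 24 TRF libraries were above the ALF median.

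Of the 10 medulla markers 8 rose, with a median of 0.51, and Phox2a and Gata3 did not pass. In the replicate 2 libraries alone 3 of the 10 rose. Th, Dbh, Pnmt, Slc18a1, Chga and Chgb are also members of the lists above, so this count does not stand apart from those. The summed medulla markers ran from 7630 through a median of 11000 to 27700 CPM under ALF and from 15700 through 23800 to 42000 CPM under TRF, so the groups overlapped. The highest ALF values were the replicate 1 libraries at ZT0 (27670 CPM) and ZT12 (26170 CPM). The summed cortex markers, by contrast, covered 33080 to 56570 CPM and 33100 to 54660 CPM. The part of the medulla-to-cortex proportion of a sample in the rises was not tested.

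**Figure D1:**
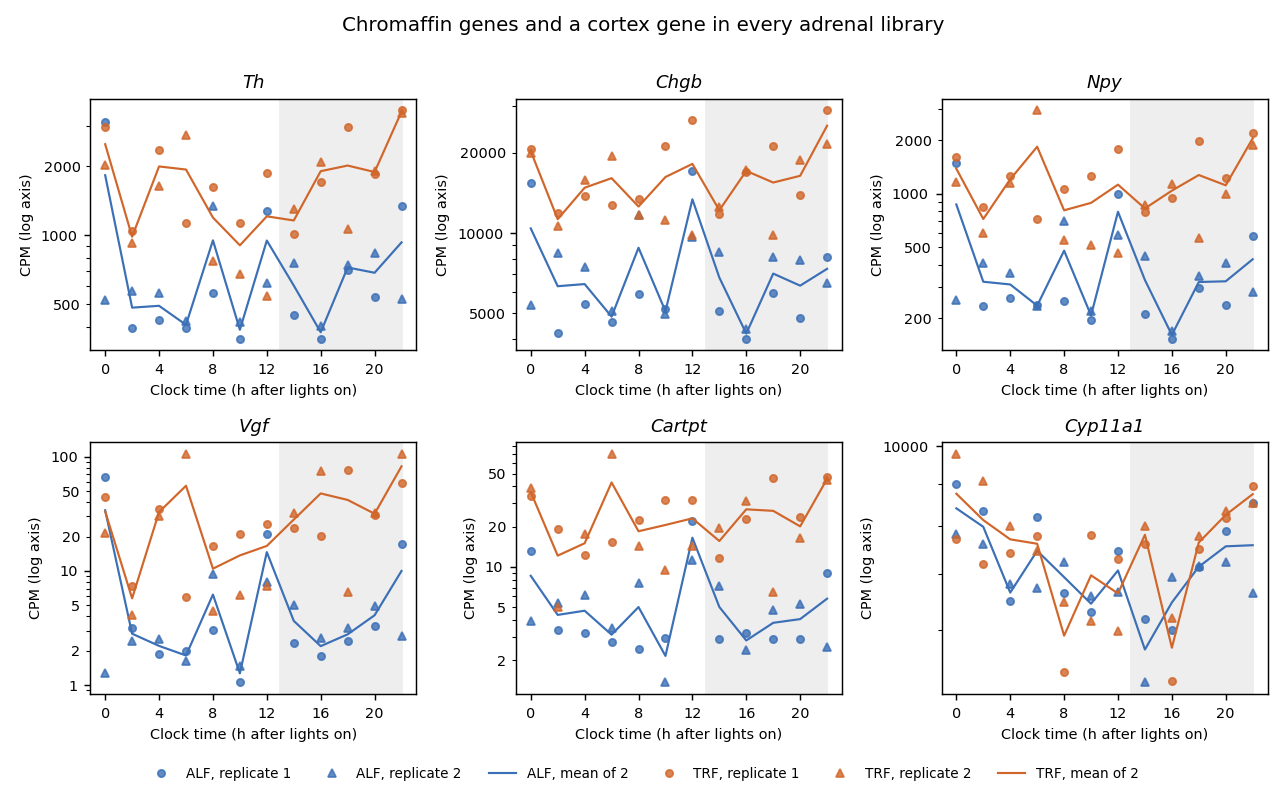
Levels of 5 medullary genes and of the cortical gene Cyp11a1 by clock time, in CPM on a log axis. Circles are replicate 1 and triangles replicate 2 libraries, lines join the means of 2 libraries, blue is ALF, orange is TRF and grey marks ZT13 to ZT22. The orange line of Th lies above the blue one at all 12 times, while the lines of Cyp11a1 (medians of 7041 and 7676 CPM) run together.

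Of 11 cortical steroid synthesis genes 2 rose and 2 fell in mean level, with a median of 0.03 and a called share of 36.4%, near that of all genes. Star ran from 9365 through a median of 14700 to 25550 CPM under ALF and from 9269 through 17030 to 25610 CPM under TRF, with no call in mean level (0.07 ± 0.08, adjusted p = 0.52), although in the feeding window it was higher by 0.34 ± 0.11 (adjusted p = 0.031). Cyp11a1, the side-chain cleavage enzyme, ran from 5179 to 8995 CPM and from 5206 to 9796 CPM (0.07 ± 0.05, adjusted p = 0.28). The ranges of both genes overlapped almost fully. Hsd3b1 (-0.03), Cyp11b1 (0.03), Cyp11b2, the aldosterone synthase (-0.02 ± 0.12), Fdx1 (0.13) and Por (-0.13) did not pass either.

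Cyp21a1, the 21-hydroxylase, fell by 0.25 ± 0.06 (adjusted p = 0.00073), from 7167 to 11590 CPM under ALF around a median of 9049, to 5228 to 10170 CPM under TRF around 7689. Fdxr, which feeds electrons to the mitochondrial steroid enzymes, fell by 0.29 ± 0.07 (adjusted p = 0.001). Only 3 and 5 of the 24 TRF libraries, respectively, were above the ALF median. The rises of Akr1b7 (0.36 ± 0.13, adjusted p = 0.029), an aldose reductase of the cortex, and Hsd3b6 (0.24 ± 0.09, adjusted p = 0.049) were lost when any of 8 and any of 39 of the 48 libraries was left out. Cyp21a1 and Fdxr did not pass in the replicate 2 libraries alone.

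Among 21 genes of ACTH and cAMP signalling 4 rose: Prkar1b, a regulatory subunit of protein kinase A (0.39 ± 0.08), Gnas, the stimulatory G protein (0.16), Pde4b (0.24) and Prkacb (0.07). The last 2 calls were lost when any of 26 and any of 40 of the 48 libraries was left out. For cholesterol uptake and transport 3 of 16 genes rose, the carrier Stard4 (0.34), the droplet protein Plin2 (0.20) and Npc1 (0.17), and 4 fell, Abcg1, Tspo, Lrp1 and Apoe. The called share was 19% of the first list and 43.8% of the second; in the replicate 2 libraries alone 1 gene of each list rose and no gene of the second fell (3 at an unadjusted p under 0.05, edgeR). Of 17 genes of the aldosterone-producing outer zone 2 rose and 4 fell, among the latter the Wnt targets Axin2 (-0.28) and Lef1 (-0.27) and the calcium channel gene Cacna1h (-0.29). That called share, 35.3%, was near that of all genes; with GC offsets 1 rose and 2 fell, and in the replicate 2 libraries alone 1 fell.

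Cholesterol synthesis genes rose. Of 22 genes 11 were higher in mean level and 1, Mvk, fell by 0.22; the median was 0.20. In the feeding window 12 rose, and in the fasting window 3 rose and 2 fell; the test of the difference between windows called no member (Lss came nearest, adjusted p = 0.05 by edgeR). Sqle, squalene epoxidase, ran from 17.1 through 29.3 to 55.1 CPM under ALF and from 23.1 through 47.5 to 92.3 CPM under TRF, with 9 TRF libraries above the ALF maximum. It rose by 0.61 ± 0.10 overall (adjusted p = 3.7e-05), by 0.92 ± 0.15 in the feeding window and by 0.37 ± 0.13 in the fasting window. Fdft1, squalene synthase, which acts just before it (0.46 ± 0.07), and Msmo1 (0.43 ± 0.08) and Nsdhl (0.32 ± 0.06), which act after it, rose as well. In the replicate 2 libraries alone 4 of the 22 rose in mean level, Fdft1 among them, and the feeding window gave 11 calls in the replicate 1 libraries alone and no call in the replicate 2 libraries, where 44 of all genes were called.

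Fatty acid synthesis rose with 12 of 19 genes and a median of 0.29: Acaca, acetyl-CoA carboxylase, by 0.88 ± 0.15 and the elongase Elovl6 by 0.82 ± 0.12. Acaca ran from 52.1 to 312.4 CPM around 119.8 under ALF and from 100.4 to 422.3 CPM around 250.1 under TRF, and 23 of 24 TRF libraries were above the ALF median. The citrate carrier Slc25a1 (0.44) and Acacb (0.49) also rose, while Srebf1 and Dgat2 fell. In the replicate 2 libraries alone 2 genes of the list rose, Elovl6 included, and the genes are also expressed in fat. The ALF level in the adrenal libraries was 51.5% of that in the libraries of a fat depot labelled eWAT for Acaca and 155% for Elovl6. Both genes also rose in eWAT, by 1.3 and 0.75 in a joint model, with no call for a difference between the tissues.

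Of 25 fatty acid oxidation genes 10 rose and 1, Acaa1a, fell in mean level, a called share of 44% against 31.9% of all genes. In the fasting window 11 rose and in the feeding window 1, but the test of the difference between windows called no member (7 at an unadjusted p under 0.05, edgeR). Ehhadh, a peroxisomal oxidation enzyme, was higher by 0.95 ± 0.17 in the fasting window and by 0.12 ± 0.19 in the feeding window. Pdk4, the kinase that blocks pyruvate oxidation, was higher by 1.41 ± 0.26 while fasting and lower by 0.23 ± 0.31, without a call, while feeding. Its ALF libraries ran from 37.7 to 202.6 CPM and its TRF libraries from 32.9 to 423.2 CPM, 9 of them above the ALF maximum. Without the libraries at ZT0 and ZT22, 5 of the 25 rose in the fasting window, and in the replicate 2 libraries alone no gene of the 25 passed in mean level by edgeR, with 2 higher and 1 lower at an unadjusted p under 0.05. Without the libraries with much Alb 3 rose in the fasting window.

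Chaperone genes rose in part. Of 22 cytosolic heat shock genes 8 rose in mean level and 1, Cdc37, fell, a called share of 40.9% against 31.9% of all genes. In the feeding window 11 rose and in the fasting window 3, with no member called for the difference between windows (7 at an unadjusted p under 0.05, edgeR). The 11 became 5 without the libraries with much Alb, 1 in the replicate 1 libraries alone and 0 in the replicate 2 libraries alone, where 10 were higher at an unadjusted p under 0.05. Hsp90aa1, the inducible HSP90, ran from 269.3 through 391.2 to 1595 CPM under ALF and from 304.9 through 716.2 to 1562 CPM under TRF (0.66 ± 0.11, adjusted p = 3.9e-05). At ZT14, the first time point after food was given, its mean was 1384 CPM under TRF and 401.1 CPM under ALF. The ALF maximum was again the replicate 1 library at ZT0. Hspa4l (0.44), Hsp90ab1 (0.31) and St13 (0.21) rose as well, and so did the mitochondrial chaperones Hspd1 (0.40) and Hspe1 (0.31). In the endoplasmic reticulum, where secreted proteins fold, 10 of 20 genes rose, a called share of 50%. Pdia3 (0.21) and Hsp90b1 (0.19) were among them, and 2 of the 20 rose in the replicate 2 libraries alone. Of the 22 cytosolic genes 2, Hsp90aa1 and Hspa4l, rose in the replicate 2 libraries alone.

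Interferon-stimulated genes, which respond to antiviral and inflammatory signals, rose in 14 of 25 cases with a median of 0.20. The called share was 56%, against 31.9% of all genes. In the feeding window 10 rose and in the fasting window 3, with no member called for the difference between windows (3 at an unadjusted p under 0.05, edgeR); without ZT0 and ZT22 the counts were 3 and 0 (9 and 3 unadjusted), and without the libraries with much Alb 4 and 3. Ifit1 ran from 35.7 through 47.4 to 87.6 CPM under ALF and from 46.1 through 70.2 to 157.6 CPM under TRF, with 23 of 24 TRF libraries above the ALF median (0.62 ± 0.10, adjusted p = 2.2e-05). Isg15, a ubiquitin-like modifier, went from a median of 14.5 to 19.9 CPM (0.48 ± 0.12), and Usp18, which removes it from proteins, rose by 0.48 ± 0.10. Ifit3 rose by 0.49 ± 0.13, though Ifit3 and Ifit3b are near-identical copies whose reads may be split. In the replicate 2 libraries alone the list median was 0.15 and no gene of the 25 passed by edgeR, with 3 higher at an unadjusted p under 0.05.

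**Figure D2:**
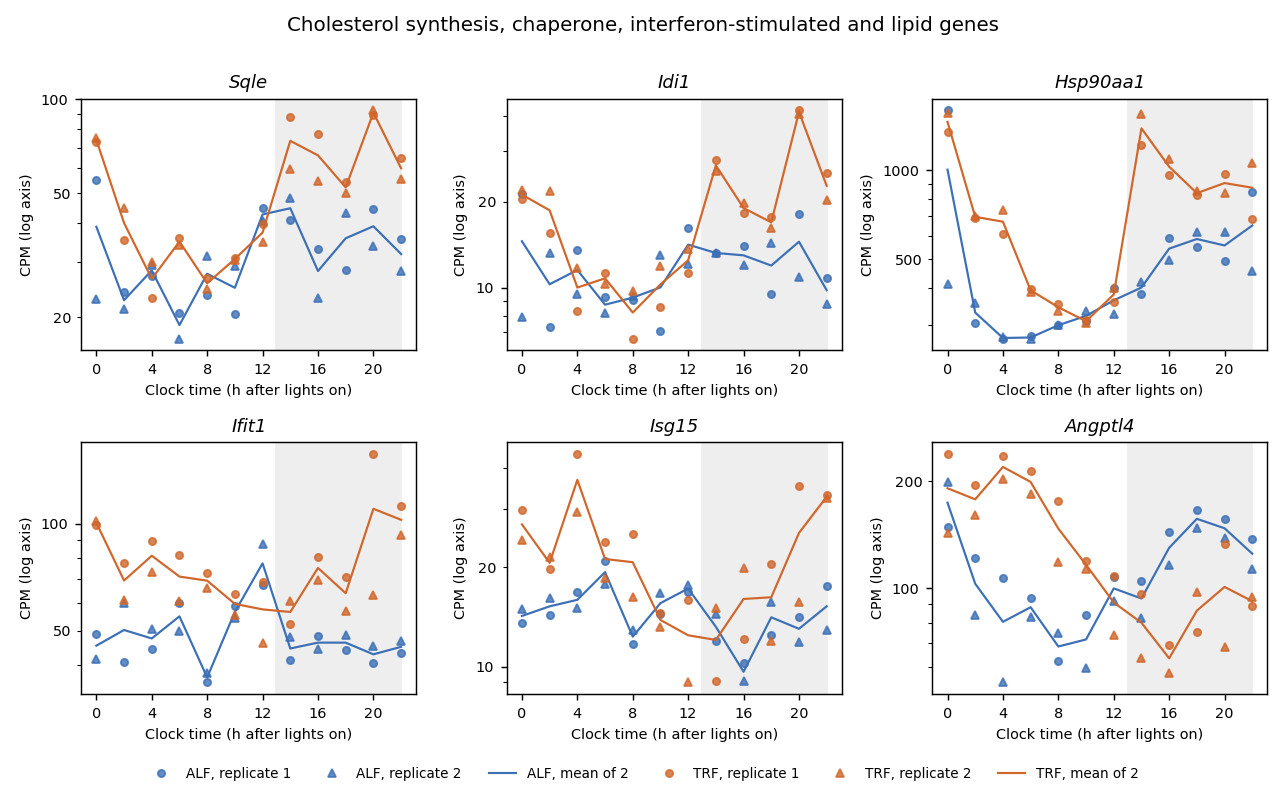
Levels of 2 cholesterol synthesis genes (Sqle, Idi1), the chaperone gene Hsp90aa1, 2 interferon-stimulated genes (Ifit1, Isg15) and Angptl4 by clock time, in CPM on a log axis. Circles are replicate 1 and triangles replicate 2 libraries, lines join the means of 2 libraries, blue is ALF, orange is TRF and grey marks ZT13 to ZT22. Hsp90aa1 stands at 1384 CPM under TRF and 401.1 CPM under ALF at ZT14.

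Endothelial, matrix and MHC class II genes fell. Of 12 endothelial markers 10 fell in mean level and 12 in the feeding window, with a median of -0.25, and all 12 were lower among replicate 1 and among replicate 2 libraries. Plvap, a protein of fenestrated capillaries, ran from 149.6 through 179.2 to 245.4 CPM under ALF and from 96.7 through 137.8 to 184.9 CPM under TRF, with 17 of 24 TRF libraries below the ALF minimum (-0.39 ± 0.04, adjusted p = 3.3e-08). The receptor gene Tie1 ran from 93.5 to 139.7 CPM and from 70.3 to 122.7 CPM, with 18 TRF libraries below the ALF minimum (-0.33 ± 0.04). Eng (-0.26) and Egfl7 (-0.28) fell too. Of the 12 genes 5 fell in the replicate 2 libraries alone, Plvap, Tie1, Eng and Egfl7 among them.

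Of 9 MHC class II genes, which present antigen, all 9 fell in mean level, with a median of -0.34. H2-Ab1 ran from 142.6 through 188.2 to 248.4 CPM under ALF and from 98.2 through 138.2 to 218.2 CPM under TRF, and 14 TRF libraries were below the ALF minimum (-0.37 ± 0.07, adjusted p = 0.00011). Here the replicate 2 libraries gave the larger count, 7 of 9 against 2 of 9 in the replicate 1 libraries. Macrophage markers fell in 6 of 14 cases (C1qc by 0.32, Csf1r by 0.21), in 4 in the replicate 2 and 1 in the replicate 1 libraries alone. Their called share was 42.9%, against 31.9% of all genes. Lymphocyte markers fell in 4 of 8, but no member passed in either replicate number alone (4 and 1 at an unadjusted p under 0.05 in the replicate 2 and replicate 1 libraries, edgeR), and of 4 neutrophil markers, with a median of 0.21, no member passed (1 higher and 1 lower unadjusted). The transcription factor gene Klf2, induced by flow in endothelium, had the smallest p of the 7 among 20 immediate early genes that fell. It had 17.0 to 38.2 CPM under ALF, 10.5 to 27.8 CPM under TRF and 16 TRF libraries below the ALF minimum (-0.50 ± 0.07). Jund (-0.53 ± 0.11) and Jun (-0.35 ± 0.07) followed. The called share of the 20 was 35%, against 31.9% of all genes, and 1 of the 20 fell in the replicate 2 libraries alone. Proliferation genes fell in 10 of 20 cases, a called share of 50%, with Mcm2 at -0.17 and Ccnb2 at -0.60. But in the replicate 2 libraries alone no gene of the 20 passed by edgeR, with 9 lower at an unadjusted p under 0.05.

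Of 24 matrix genes 13 fell and 1, Timp1, rose, a called share of 58.3%. With single libraries left out, 10 to 16 of the list fell and 0 to 1 rose. Col15a1, a basement membrane collagen, ran from 46.0 through 96.1 to 153.1 CPM under ALF and from 37.7 through 54.9 to 76.3 CPM under TRF, and no TRF library was above the ALF median (-0.75 ± 0.10, adjusted p = 8.4e-07). Col6a2 (-0.69 ± 0.12), Nid1 (-0.43 ± 0.08) and Col6a1 (-0.26 ± 0.04) fell with it. Of 14 capsule genes 6 fell (42.9%, with 31.9% of all genes called), among them Col1a1 (-0.33) and Nr2f2 (-0.19). In the replicate 2 libraries alone 3 of the 24 matrix genes fell, while of the 14 capsule genes no member passed there (5 lower at an unadjusted p under 0.05, edgeR), 2 fell in the replicate 1 libraries alone and 1 without the libraries with much Alb.

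**Figure D3:**
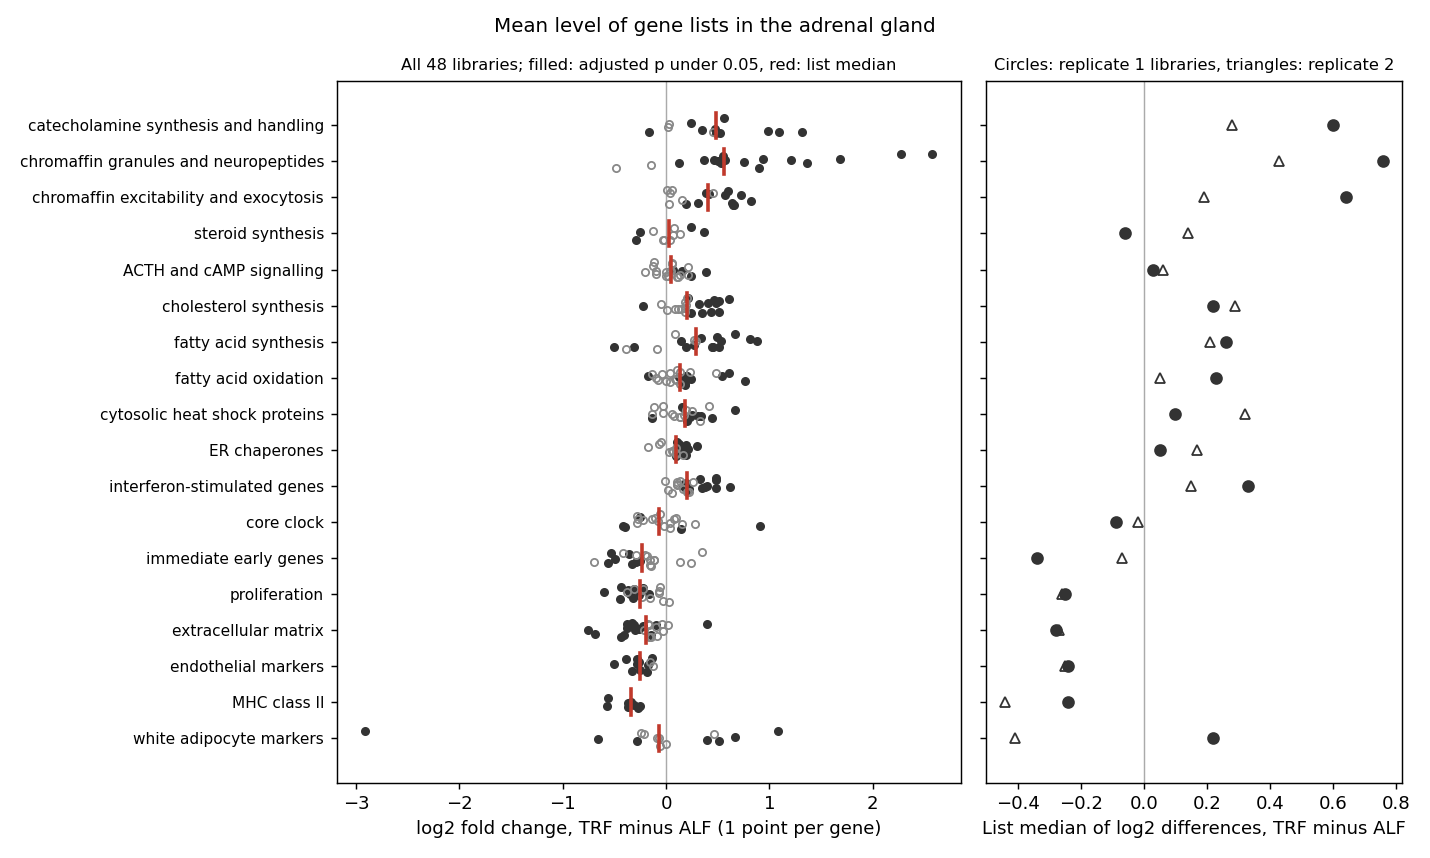
Left, log2 fold change in mean level (TRF minus ALF) of each tested gene in the gene lists, with filled points for an adjusted p under 0.05 and a red mark at the list median. Right, the list medians of that difference among replicate 1 and among replicate 2 libraries. The list median is 0.56 for granules and neuropeptides, 0.03 for steroid synthesis and -0.34 for MHC class II.

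The largest fall was in an adipocyte gene. Lep, the adipocyte hormone leptin, ran from 12.4 through 376.3 to 1063 CPM under ALF and from 6.78 through 39.3 to 292.8 CPM under TRF, and every TRF library was below the ALF median. It fell by 2.91 ± 0.34 (adjusted p = 1.3e-07). At ZT12 the ALF level was also low, with a mean of 41.0 CPM. Timp4, a metalloproteinase inhibitor, ran from 7.95 to 52.0 CPM around 23.6 and from 3.11 to 14.3 CPM around 8.55, with 10 TRF libraries below the ALF minimum (-1.55 ± 0.16, adjusted p = 3.3e-08). Cdsn (-1.67), Dmrt2 (-1.20), Sncg (-1.17), Sucnr1 (-1.02), Anxa1 (-1.0), Adamts5 (-0.996), Npr3 (-0.99), Slc6a13 (-0.99), Lctl (-0.88), Sfrp5 (-0.88), Dpt (-0.86), Fads3 (-0.81) and Nnat (-0.79) completed the 15 largest.

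Lep, Timp4, Cdsn, Dmrt2, Adamts5 and Npr3 kept their calls in replicate 1 and in replicate 2 libraries alone; the others were lost in the replicate 2 libraries. All 15 were more abundant in the fat libraries labelled eWAT in the same table, where Adipoq had a mean of 4059 CPM under ALF. Their mean level in the ALF adrenal libraries was between 4.74% (Sfrp5) and 17.3% (Nnat) of that in the 24 ALF libraries of eWAT, with Lep at 5.25% and Timp4 at 8.26%. White adipocyte markers as a list did not move one way: 4 rose, Cfd (1.08 ± 0.27), Adig (0.67), Thrsp and Fabp4, and 3 fell, Lep, Plin4 (-0.66 ± 0.14) and Plin1. Their summed level ran from 3300 through 4280 to 11900 CPM under ALF and from 2360 through 4940 to 14600 CPM under TRF. The list median was 0.22 among replicate 1 and -0.41 among replicate 2 libraries. Adipoq, adiponectin, had means of 308.8 and 290 CPM. The amount of fat on the glands was not measured, and its part in the falls was not tested.

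In a joint model with the 48 eWAT libraries the feeding effect differed between the tissues for 7826 of 15298 genes (51.2%). There Lep fell in both, by 2.93 in the adrenal and 1.36 in the eWAT libraries, a difference of -1.57 ± 0.44 (adjusted p = 0.0024). Timp4 fell by 1.56 in the adrenal and had a change of 0.10 in eWAT, a difference of -1.66 ± 0.25 (adjusted p = 2.5e-07). Nnat fell in the adrenal libraries and rose in eWAT by 0.85. Anxa1 fell in both, with changes of -1.0 and -1.14, with no call for the difference (0.14 ± 0.24, adjusted p = 0.65). The falling matrix gene Col15a1 was at 9.71% of its eWAT level under ALF, and Nid1 at 11.5%. Both also fell in eWAT, by 0.45 and 0.34, with no call for the difference. Of the other matrix genes named above, Col6a2 had no call for the difference either. Col6a1 had changes of -0.26 in the adrenal and -0.97 in the eWAT libraries (difference 0.713 ± 0.168, adjusted p = 0.000318). Timp1, without a call in the adrenal libraries in this model (0.398), fell by 2.228 in eWAT (difference 2.625 ± 0.379, adjusted p = 8.1e-08). H2-Ab1, at 24.1% of its eWAT level, fell by 1.03 in eWAT, more than in the adrenal libraries (difference 0.66 ± 0.17, adjusted p = 0.00081). The cholesterol synthesis gene Msmo1 rose in the adrenal libraries and fell by 0.47 in eWAT. The part of fat tissue in these changes was not tested. Of the medullary genes that rose, Npy had 1.09 CPM and Gal 0.0955 CPM in eWAT under ALF.

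**Figure D4:**
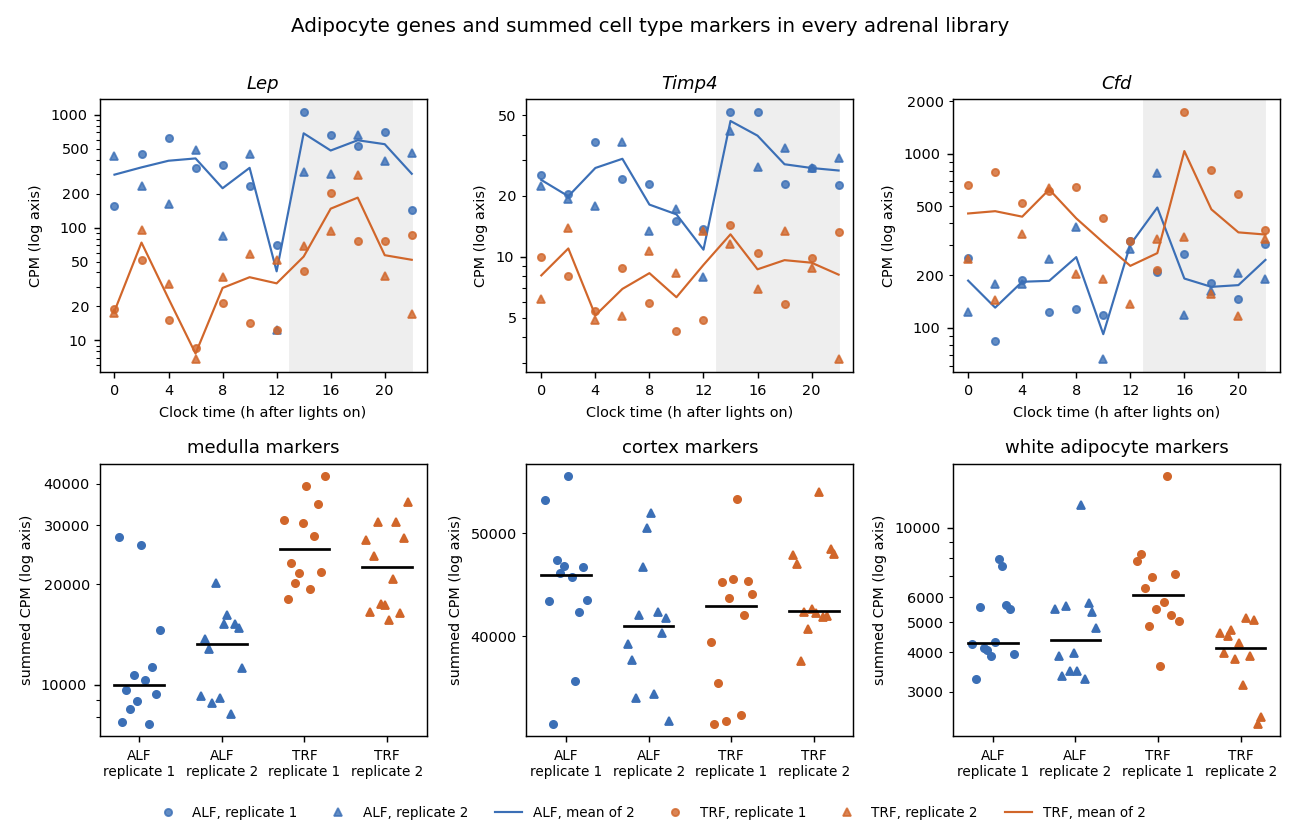
Levels of the adipocyte genes Lep, Timp4 and Cfd by clock time (CPM, log axis; blue ALF, orange TRF, circles replicate 1, triangles replicate 2, lines means of 2 libraries, grey ZT13 to ZT22), and the summed CPM of medulla, cortex and white adipocyte markers in each library by group and replicate number (log axis; black lines are medians). Lep is lower under TRF at all 12 times, cortex sums overlap fully, and white adipocyte sums reach 11900 CPM under ALF and 14600 CPM under TRF.

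The fasting and feeding windows differed in the effect of TRF for few genes. The difference passed for 25 of 14467 genes (0.173%), with 1572 at an unadjusted p under 0.05; in 5 (0.0346%) the effect was higher in the feeding window and in 20 (0.138%) lower. Angptl4, an inhibitor of lipoprotein lipase induced by fasting, ran from 54.3 to 199.1 CPM under ALF and from 57.9 to 239 CPM under TRF, with 4 TRF libraries above the ALF maximum. It was higher under TRF by 0.75 ± 0.14 in the fasting window and lower by 0.62 ± 0.16 in the feeding window, a difference of -1.37 ± 0.21 (adjusted p = 0.0021). Pck1, which feeds gluconeogenesis and glyceride synthesis, was higher by 1.06 ± 0.21 while fasting, with a difference of -1.46 between windows (adjusted p = 0.043) that was lost when any of 34 of the 48 libraries was left out. The clock genes Npas2 (-1.78) and Arntl (-1.07), the factor Klf11 (-0.81), the immune receptors Cd300a (-0.95) and Ptafr (-1.11) and the ubiquitin ligase Rnf125 (-1.37) had lower effects in the feeding window too. Tspan4 (0.53), Fgf11 (0.52), Tmem97 (0.39), Kcnk3 (0.36) and Ccnd2 (0.32) had the reverse. The count of 25 ran from 8 to 52 as single libraries were left out, and no gene passed in replicate 1 or replicate 2 libraries alone (1057 and 790 at an unadjusted p under 0.05, edgeR), while DESeq2 called 77. Each call named here was also lost in either replicate number alone.

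More genes had a 24 h rhythm under TRF. A cosine fit was called for 1631 genes under ALF (11.3%) and 5675 under TRF (39.2%), and 1229 were called in both, 75.4% of the first list and 21.7% of the second. The call itself does not show a difference: the test of the difference between the fits passed for 167 genes (1.15%), of which 146 had the larger amplitude under TRF. Over all genes the amplitude, from the mean to the peak on the log2 scale, had a median of 0.11 under ALF and 0.16 under TRF and was larger under TRF for 9975 genes (69%). TRF peaks gathered in the 6 h from ZT6 (1841) and from ZT18 (1734), against 998 from ZT0 and 1102 from ZT12. The same spans were highest under ALF, with 466 from ZT6 and 444 from ZT18, against 364 from ZT0 and 357 from ZT12. The residual spread had a median SD of 0.227 under TRF and 0.192 under ALF. The replicate 2 libraries alone gave 144 rhythmic genes under ALF and 1623 under TRF, the replicate 1 libraries alone 191 and 2290.

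Of 20 clock genes 16 were rhythmic under ALF and 18 under TRF, and the test of the difference passed for Arntl, Npas2, Per3 and Tef. Arntl, the BMAL1 activator, peaked at 22.40 h under ALF and 0.03 h under TRF, a shift of 1.63 ± 0.30 h (SE), with amplitudes of 1.76 and 1.73. Its partner Npas2 moved by 2.21 ± 0.39 h. The repressor gene Per3 moved by 1.27 ± 0.39 h and the output factor Tef by 1.44 ± 0.35 h. Among all 1229 genes rhythmic in both groups the median absolute peak shift was 1.52 h, and 761 had peaks within 2 h of each other. The amplitudes were 0.98 and 1.28 for Per3, 0.89 and 1.05 for Tef and 2.16 and 2.17 for Npas2. With GC offsets the difference passed for 2 clock genes, with a second harmonic for 1, in the replicate 1 libraries alone for 1 and in the replicate 2 libraries alone for no gene of the list.

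Other members had no call for the difference. Their shifts were 0.92 ± 0.35 h for Nr1d1, the REV-ERBα repressor, 1.19 ± 0.37 h for Nr1d2, 1.22 ± 0.36 h for Dbp, 1.02 ± 0.40 h for Cry1, 1.39 ± 0.57 h for Cry2 and 1.17 ± 0.40 h for Bhlhe41. The shifts of Clock (0.80 ± 0.60), Per2 (0.67 ± 0.71), Hlf (0.35 ± 1.00), Ciart (1.51 ± 0.68) and Nfil3 (-1.17 ± 0.94) had wide errors. Per1 and Bhlhe40 were called under TRF and not under ALF, without a call for the difference, with amplitudes of 0.33 and 0.92 for Per1, while Rora and Rorb were called in neither group. In mean level 3 clock genes fell, Per3 (-0.25), Nr1d1 (-0.40) and Dbp (-0.42), and 2 rose, Rorb (0.91) among them, a called share of 25% and below that of all genes. No member passed in the replicate 2 libraries alone (2 higher and 2 lower at an unadjusted p under 0.05, edgeR), and Nr1d1 lost its call with a cosine in place of clock time. The calls of Per3 and Dbp were lost when any of 16 and any of 11 of the 48 libraries was left out. Of the 20 genes 14 were rhythmic under ALF and 17 under TRF in the replicate 2 libraries alone.

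**Figure D5:**
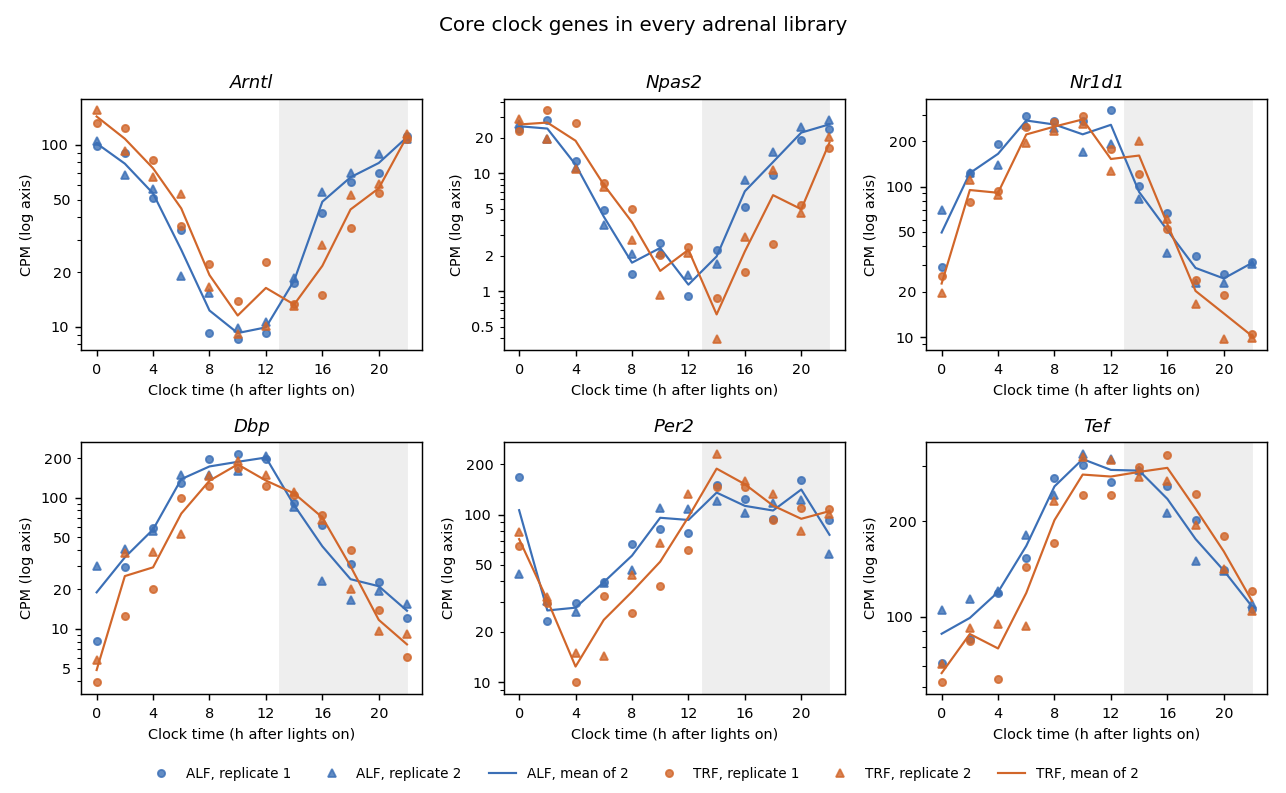
Levels of 6 clock genes by clock time, in CPM on a log axis. Circles are replicate 1 and triangles replicate 2 libraries, lines join the means of 2 libraries, blue is ALF, orange is TRF and grey marks ZT13 to ZT22. The orange curve of Arntl lies to the right of the blue one, by 1.63 h in the fitted peak.

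Cholesterol synthesis had 5 rhythmic genes of 22 under ALF and 20 under TRF, with a median amplitude of 0.19 and 0.46, and the difference passed for Msmo1 and Lss. Msmo1 had amplitudes of 0.28 and 0.60 and a TRF peak at 18.9 h. Interferon-stimulated genes had 2 of 25 and 19 of 25, with median amplitudes of 0.14 and 0.35, and the difference passed for 9. Ifit1 peaked at 10.5 h under ALF and 23.2 h under TRF, and Isg15 had amplitudes of 0.19 and 0.63. Ifit3 was rhythmic in both groups with similar amplitudes (0.42 and 0.36) and peaks at 12.2 h and 22.8 h. The rhythm difference passed for no gene of this list in either replicate number alone by edgeR. Over all genes it passed for 4 in the replicate 2 libraries and 2 in the replicate 1 libraries alone, with 1119 and 1387 at an unadjusted p under 0.05.

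Among single genes the smallest p for the difference was that of Angptl4 (adjusted p = 6.7e-07), whose fitted peak lay at 20.2 h under ALF and 3.97 h under TRF. Hao2, a peroxisomal oxidase, had amplitudes of 0.31 and 0.78, and Hdc, which makes histamine, had 1.26 and 0.69, the reverse order. Scd2, a desaturase with no call under ALF (amplitude 0.05), reached 0.29 under TRF. Smim10l1, Pnpt1, Abce1, Ints10 and Pno1 also differed, with TRF peaks between 21.2 and 22.7 h. The stress-responsive Hspa1a and Hspa1b, near-identical copies, had amplitudes of 1.17 and 1.39 under ALF and 1.73 and 1.89 under TRF with no call for the difference (adjusted p = 0.056 and 0.06). In Dio2, which activates thyroid hormone, the amplitudes were 0.46 and 1.64, and in Angptl8, an insulin-induced partner of Angptl4's family, 0.20 and 1.76, again without a call for the difference (adjusted p = 0.22 and 0.062). Of the 11 steroid synthesis genes 3 were rhythmic under ALF and 7 under TRF; Star peaked at 11.5 h and 14.7 h, with an adjusted p of 0.3 for the difference.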

How the data were processed

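Adrenal RNA was read as polyA-selected stranded libraries. The authors deposited expected counts per gene for every tissue in 1 table, made with STAR 2.5.3a and HOMER 4.10 on mm10, per the submitters' processing notes; 31.23% of the adrenal values were not whole, and counts were rounded before testing. Of the 1035 columns, 96 were used (48 adrenal, 48 eWAT) and 939 were not. Of 24537 rows, 4 with a duplicated gene name were removed. Counts were scaled by TMM and tested with edgeR 4.0.16 (glmQLFit, glmQLFTest, R 4.3.3) after filterByExpr by feeding group, with Benjamini-Hochberg adjustment over all 14467 genes. Group and clock time were factors, a 24 h cosine gave rhythms, and limma 3.58.1 on log2 CPM (prior count 2) gave amplitudes and peaks. Adjusted p-values throughout are edgeR's; fold changes are log2, TRF minus ALF, with n = 24 libraries per group. Named genes were the 15 largest rises and falls in mean level and the 8 largest each way per window and window difference (adjusted p under 0.05, mean of at least 5 CPM, same sign in both replicate numbers), the 10 largest amplitudes per group, the 10 smallest p of the rhythm difference, all steroid, catecholamine and clock genes, and up to 4 per other list; further genes were named after their values were seen. The values of some list members are not reported here. Members and lists were chosen with earlier results of these data known. Same-numbered ALF and TRF libraries deviated with correlations of -0.554 to 0.59 over 12 clock times, so the numbers were not used as pairs. The fit was tested on simulated data of 14380 genes without replicate or GC structure. Of 50 genes each given a log2 change of 0.5 or -0.5, 92% and 86% were called. Of 100 genes each given a rhythm of amplitude 0.3 or 0.6 under TRF only, 70% and 98% were called rhythmic there. The test of the rhythm difference called 34% and 74% of them. Alternatives were DESeq2 1.42.0 and its size factors, no filter, GC offsets, left-out libraries and clock times, and libraries without high Alb, the last chosen after seeing the data. Promoter sequences are RefSeq's (GRCm38.p6).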

Additional observations from a re-analysis of the deposited data

Results flagged for a closer look

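The effect of TRF differed between the feeding and fasting windows for 25 genes, the 24 h course differed between the groups for 167, and the mean-level effect differed between adrenal and eWAT libraries for 7826, each by a test of the difference itself. Between windows (feeding minus fasting, log2) the differences were 0.529 for Tspan4, 0.515 for Fgf11, 0.391 for Tmem97, 0.364 for Kcnk3 and 0.324 for Ccnd2, and -1.777 for Npas2, -1.461 for Pck1, -1.373 for Rnf125, -1.369 for Angptl4, -1.107 for Ptafr, -1.069 for Arntl, -0.95 for Cd300a and -0.811 for Klf11. The size of the difference between the 2 cosine courses, on the log2 scale, was largest for Npas2 (1.232), Pck1 (1.169) and Angptl4 (1.141) of the genes given here. It was 0.947 for Hdc, 0.851 for Rnf125, 0.741 for Arntl, 0.675 for Cd300a, 0.592 for Klf11, 0.4 for Fgf11 and 0.294 for Tmem97. Among interferon-stimulated genes it was 0.789 for Ifit3b, 0.762 for Ifit3, 0.562 for Isg15, 0.496 for Ifit1 and 0.393 for Xaf1. It was 0.704 for Cirbp, a cold-inducible RNA-binding protein, 0.586 for Hao2, 0.479 for Per3, 0.444 for Msmo1 and 0.395 for Tef. Smaller values were found for Scd2 (0.329), Pnpt1 (0.329), Smim10l1 (0.283), Pno1 (0.275), Ints10 (0.236), Utp20 (0.224) and Abce1 (0.222). Between tissues (adrenal minus eWAT) the feeding effects differed by -1.66 for Timp4, -1.565 for Lep, -1.401 for Cfd, -1.203 for Pck1, -1.066 for Plin4 and -1.028 for Sncg.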

How the results depend on the processing

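Direction was followed gene by gene for the named genes only, and none of their level calls changed direction under any alternative tried. The mean-level count of 4615 was 4589 with DESeq2's size factors, 4814 with DESeq2, 4327 without a filter, 4330 with a cosine for clock time, 3805 with GC offsets and 3421 without the libraries with much Alb, and 4651 with the replicate block; no pairing by number was found. Across 14357 genes, which are not independent, the log2 fold change had a Spearman correlation of -0.361 with GC content, and 3037 of the 4615 calls were shared with those under GC offsets; the part of GC content and of RNA quality in the results was not tested otherwise. Of the 4615 calls 52% were higher under TRF, and 46.6% to 53.4% under these alternatives, clock times and replicate numbers left out included. With any single library or any clock time left out, more genes were lower than higher under TRF, and 46.6% to 49% were higher. Leaving out single libraries gave 4126 to 4788 and leaving out clock times 3562 to 4570; a replicate number left out gave 442 to 3177. For the fasting window (2524) GC offsets gave 1598, dropping ZT0 and ZT22 1356, dropping ZT0 1419, ZT2 1641, and the high-Alb libraries 1495; leaving out a replicate number gave 0 to 1195 and a single library 1904 to 2635 (the 0 had 1766 at an unadjusted p under 0.05, edgeR). For the feeding window (2378) the values were 1247 without the high-Alb libraries, 1413 without ZT20, 44 to 1273 for replicate numbers and 1726 to 2499 for single libraries. The window difference (25) was 77 with DESeq2, 53 without ZT0 and ZT22, 2 without the high-Alb libraries, 42 without ZT0, 11 without ZT6, 5 without ZT8, 11 without ZT10, 9 without ZT12, 9 without ZT14 and 8 without ZT18, 8 to 52 for single libraries and 0 for either replicate number. It was lowest without TRF ZT16 replicate 2 or ALF ZT22 replicate 2 and highest without ALF ZT0 replicate 2. Rhythmic genes were 732 (ALF) and 2546 (TRF) at an amplitude of at least 0.25, and 144 to 191 and 1623 to 2290 for replicate numbers. The rhythm difference (167) was 96 with GC offsets, 72 with a second harmonic, 81 without the high-Alb libraries, 89 without ZT0, 84 without ZT10, 67 without ZT12, 57 without ZT20, and 2 to 4 for replicate numbers. The tissue difference (7826) was 2216 to 6788 for replicate numbers. The cause of these changes was not tested, except that fits on 1 replicate number hold fewer libraries. Of 163 named mean-level calls, 151 held in every single-library fit and 50 in each replicate number alone.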

Other observations

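Antioxidant genes moved in both directions: of 22 tested, 10 rose and 5 fell in mean level, with a median of 0.06. The called share was 68.2%, against 31.9% of all genes. Gclc and Gclm, which encode the subunits of the rate-limiting enzyme of glutathione synthesis, rose by 0.37 and 0.26, and 13 of 24 TRF libraries exceeded every ALF library in Gclm. Prdx1 rose by 0.22 and Prdx5 fell by 0.21. In the replicate 2 libraries alone 3 of the 22 rose. Of 18 genes that the factor ATF4 is known to activate 6 fell and 1 rose, a called share of 38.9% against 31.9% of all genes. Phgdh, of serine synthesis, was at -0.79, Psat1 at -0.42, the amino acid transporter gene Slc7a5 at -0.32 and asparagine synthetase, Asns, at 0.49. In the replicate 2 libraries alone 1 of the 18 fell. Of 18 genes of glycolysis and glucose uptake 6 rose and 1, the transporter gene Slc2a1 (-0.19), fell, a called share of 38.9%. Pgk1 rose by 0.41, and in the replicate 2 libraries alone no member passed (3 higher at an unadjusted p under 0.05, edgeR). Of 16 genes that glucocorticoids are known to induce 4 fell, among them Sgk1 (-0.22) and Tsc22d3 (-0.25), and Pdk4 rose, a called share of 31.2% against 31.9% of all genes; in the replicate 2 libraries alone no member passed (1 higher and 2 lower at an unadjusted p under 0.05, edgeR).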
